A study of Homo sapiens with 6 samples.

Results

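The 40 genes described here are direct targets of p53, a transcription factor that is activated by stress and DNA damage. They were listed by name, and each was given its accessible regions by position alone. A promoter region was one that overlapped the 2 kb on either side of the transcription start site (TSS) of any protein-coding transcript of the gene. A distal region lay outside all such windows and had its nearest TSS at the gene, within 100 kb of the middle of the region. By this rule 36 of the 40 genes had 48 promoter regions, out of 20094 promoter regions in all, and 27 genes had 135 distal regions, out of 88448. Together these were 183 of 108542 regions. The distal count depends on the annotation, and was 59 when start sites of all genes, noncoding ones included, could be the nearest.

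The regions came from ATAC-seq of EndoC-βH3 cells, in which a transposase inserts sequencing adapters into open DNA. EndoC-βH3 is a human beta cell line of fetal origin. It carries removable transgenes for telomerase and for the large T antigen of SV40, through which it grows and under which p53 and Rb are held inactive. Of the 6 libraries, each from 100000 cells of this one line, 3 were from non-senescent control cells and 3 from senescent cells, in which 3 weeks of 4-hydroxy tamoxifen had activated CreER and removed the transgenes. The labels give the genotype of both groups as WT. The only value per region used here is the mean signal, the authors' mean of the normalised read counts over all libraries. It pools both groups, so that senescent and non-senescent cells cannot be told apart in any value below, no spread between libraries can be given, and these values hold no depth per library. Of 8 beta cell genes whose promoters should be open in such cells, all had a promoter region, from NKX2-2 (mean signal 405) to INS (7894).

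p53 binds DNA as a tetramer. Its response element consists of 2 half-sites of 10 bases, each with 3 purines, a core that starts with C, ends with G and has 2 bases between them that are A or T, and 3 pyrimidines. Through such elements it activates genes of cell-cycle arrest, DNA repair and apoptosis, and also genes that limit its own activity. In beta cells, as in other cells, the p53 and Rb pathways hold the senescent arrest.

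The first question was whether the accessible regions of these genes contained p53 elements. An element was counted when both cores were exact, the half-sites were adjacent and at most 2 of the remaining bases differed. The element reads the same on both strands, so each was searched once. Of the 40 genes, 7 had an element in one of their regions, 6 at a promoter and 1 at a distal region. Of 19623 other protein-coding genes, 56 had one at a promoter and 173 at a distal region. The elements of the 7 genes are printed below, 5′ to 3′ on the plus strand of hg38. They are the sites on which the following comparisons rest. Both half-sites are in capitals.
CCNG1: tgtgaGCACAAGCCCAGGCTAGTCCgaggc
GADD45A: gtacaGAACATGTCTAAGCATGCTGgggac
PMAIP1: tttctGGGCTTGTTTACCCAAGTCTctaat
AEN: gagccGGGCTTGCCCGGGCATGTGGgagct
FAS: ctcctGGACAAGCCCTGACAAGCCAagcca
SPATA18: aggaaGGACATGTGTGTACATGCCCttgtc
IER5, distal: gagggAGGCATGCCCGGGCATGTCTgctgg

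Among the genes of arrest and feedback, the element of CCNG1, which encodes cyclin G1, a cofactor that recruits a phosphatase to MDM2, had 1 mismatch. It lay in intron 1 (chr5:163437926-163437945), 321 bp downstream of the nearest TSS, in a region with a mean signal of 1336. That of GADD45A, which encodes a stress protein of growth arrest and DNA repair, also had 1 mismatch. It lay in intron 3 (chr1:67686775-67686794), 1379 bp downstream of the nearest TSS. It was 870 bp from the middle of a region 2008 bp wide with a mean signal of 3006, and thus close to one of its ends.

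The elements of the apoptosis genes had 2 mismatches each. In PMAIP1, which encodes the BH3-only protein NOXA, it lay 437 bp upstream of the TSS (chr18:59899549-59899568) in a region with a mean signal of 1432. In AEN, which encodes an apoptosis-enhancing nuclease, it lay 24 bp upstream of the TSS (chr15:88621306-88621325) in a region with a mean signal of 979.9. In FAS, the gene of a death receptor, it lay in intron 1 of the canonical transcript (chr10:88991309-88991328), 109 bp upstream of the TSS of a shorter transcript. The region of FAS was weaker than the others, with a mean signal of 293. SPATA18 encodes a protein of mitochondrial quality control. Its element, also with 2 mismatches, lay in intron 1 (chr4:52051957-52051976), 550 bp downstream of the nearest TSS, in a region with a mean signal of 566.

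The element without a mismatch was distal. It lay 46451 bp downstream of the TSS of IER5, an immediate-early gene (chr1:181135142-181135161), outside the bodies of protein-coding genes. The region had a mean signal of 93.6, near the middle of all regions (percentile 48.8), and 25 of the 88448 distal regions held such an element.

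AEN was the member with an element nearest to a TSS. The 250 bases before its start are printed to show this element with the promoter around it (RefSeq, GRCh38.p14, chr15:88621090-88621339, plus strand, element in capitals).
AEN promoter: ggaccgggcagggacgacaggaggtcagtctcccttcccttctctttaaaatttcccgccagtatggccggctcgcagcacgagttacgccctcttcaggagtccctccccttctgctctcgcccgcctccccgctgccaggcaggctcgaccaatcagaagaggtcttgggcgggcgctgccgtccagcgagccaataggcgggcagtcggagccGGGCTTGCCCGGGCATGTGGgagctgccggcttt

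The table of promoters held 31 of the 40 genes, and of its 35116 promoters 50 (0.142%) had an element in these 250 bases. Those of AEN and FAS were among them.

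At promoters, the regions of the 40 genes held an element more often than other regions did. The share was first taken in a window of 300 bp around the middle of each region, which sets aside the width of the regions. In it 2 of the 48 promoter regions had an element (4.17%, 95% Wilson interval 1.15 to 13.98%), against 0.0562% of other promoter regions weighted to the same mean signal. These were the regions of AEN and FAS, whose elements lay 80 and 105 bp from the middle. The other 4 lay 186 to 870 bp from it. As an alternative the whole region was searched, and 6 of the 48 had an element (12.5%, interval 5.86 to 24.7%). Of the 20046 other promoter regions, 49 had one (0.244%, interval 0.185 to 0.323%), and the share was 0.273% when these were weighted to the same mean signal and 0.236% when they were weighted to the same mean signal and GC content. The 6 regions made up 10.9% of the 55 promoter regions with an element. With the half-sites read backwards, which keeps their base composition, 0 of the 48 regions had a match, which allows a share of up to 6.25%, against 0.0848% of the others. For a count of 0 the limit given, here and below, is 3 counts of the total in place of an interval. Intervals and limits cover counting error only. Since the genes were listed as known p53 targets, some of them because of these very sites, the excess is not independent of the choice of genes, and no test was made.

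No such excess could be read at distal regions, which rest on 1 element. Of the 135 distal regions, 1 had an element (0.741%, interval 0.131 to 4.08%), in the window as in the whole region. The share of other distal regions weighted to the same mean signal was 0.158% in the window and 0.324% in the whole region, and the interval of the former covers both. The element has no mismatch. For elements without a mismatch in the whole region the share of the others was 0.0253%, below that interval.

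**Figure D1:**
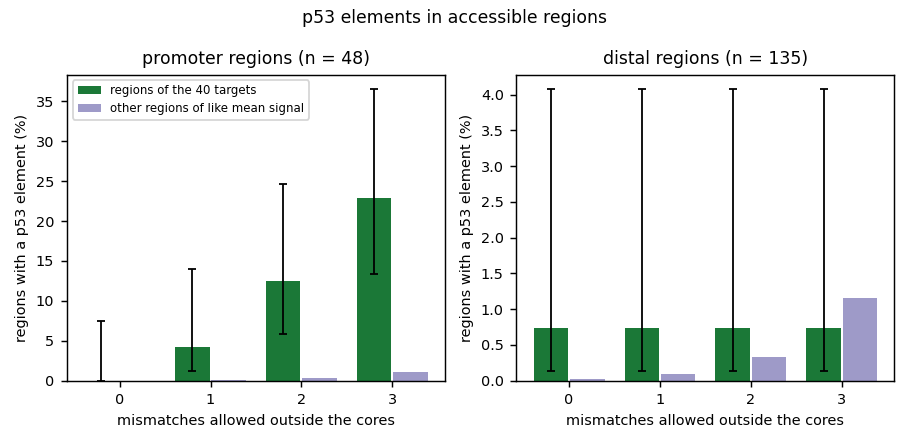
Percentage of promoter (left) and distal (right) regions with a p53 element anywhere in the region, by the number of mismatches allowed outside the cores. Green bars are regions of the 40 targets with 95% Wilson intervals, and purple bars are other regions weighted to the same mean signal. At promoters with 2 mismatches the bars stand at 12.5% and 0.273%, while at distal regions the interval of the targets covers the value of the others with 2 and with 3 mismatches.

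The same measure was taken in other gene lists, with genes as the unit. Of the 36 targets with a promoter region, 6 had an element in it (16.7%, interval 7.87 to 31.9%). Of 155 other genes of the Hallmark p53 pathway with a promoter region, 4 had one (2.58%, interval 1.01 to 6.45%). Of the 92 cell-cycle genes named by the study, 0 had one, which allows a share of up to 3.26%, and of 15457 other protein-coding genes 56 had one (0.362%).

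Looser forms of the element added members of several groups. With 3 mismatches, the promoters of 5 more genes held an element, those of RPS27L, BBC3, SESN1, TP53I3 and GDF15. RPS27L, which encodes a ribosomal protein paralog, had 2 of them, and that of BBC3, which encodes the BH3-only protein PUMA, lay 130 bp upstream of the TSS. With a spacer of up to 3 bases, elements appeared in regions of another 5 genes, DDB2, TIGAR, TRIAP1, BTG2 and RRM2B. Of these, DDB2 and TIGAR had no mismatch in either half-site, and they are printed here because the spacer alone kept them from the count above, with the spacer in lower case between the half-sites.
DDB2: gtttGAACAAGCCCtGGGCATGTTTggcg
TIGAR: tgccAGACATGTCCacAGACTTGTCTgggt

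The element of DDB2, which encodes a subunit of the complex that recognises ultraviolet damage, had a spacer of 1 base. It lay in the 5′ UTR in exon 1 (chr11:47214979-47214999), 15 bp downstream of the TSS. That of TIGAR, which encodes a fructose bisphosphatase that lowers glycolysis, had a spacer of 2 bases and lay in intron 1 (chr12:4321615-4321636), 412 bp downstream of the TSS. Counting these looser forms, 17 of the 40 genes had an element in a region. No such count was made for other genes, so this number shows no excess of the targets. These forms are also more frequent elsewhere. With 3 mismatches, 22.9% of the promoter regions of the targets and 1.07% of other promoter regions of like mean signal had one, and with the spacer the shares were 18.8% and 1.30%. The elements of BTG2 and RRM2B lay in distal regions. There the share with the spacer was 2.96% (interval 1.16 to 7.37%), against 1.23% of other distal regions of like mean signal, which the interval covers.

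The next question was whether p53 elements near the start sites lay in accessible DNA at all. Within 2 kb of a TSS, 11 of the 40 genes (27.5%) had 12 elements with at most 2 mismatches, against 635 of 19623 other protein-coding genes (3.24%). Of the 12 elements of the targets, 6 lay in a region and 6 did not. Of the 655 elements of the other genes, 57 lay in a region (8.70%). Of the 13 elements of other Hallmark p53 pathway genes 4 did, and of the 5 of the cell-cycle genes 0 did, counts too small for a share. The lists were not matched, as 15457 of the 19623 other genes had a promoter region, against 36 of the 40 targets. The targets were also listed in part because of known sites, and no test was made.

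The 6 elements outside the regions included the best match among these 12. ZMAT3 encodes an RNA-binding zinc finger protein. Its element had no mismatch and lay 1368 bp downstream of the TSS (chr3:179070188-179070207), with its middle 1005 bp beyond the end of the nearest region. The element of RRM2B, which encodes a p53-inducible subunit of ribonucleotide reductase, had 1 mismatch and lay 1925 bp downstream of the TSS, with its middle 1706 bp from the nearest region. The TSS of RRM2B itself lay in the strongest promoter region of all 40 genes. The other 4, with 2 mismatches each, were those of BTG2, GDF15 and TNFRSF10B and a second element of CCNG1. The middle of the last was 565 bp from the nearest region, that of GDF15 564 bp, that of BTG2 1401 bp and that of TNFRSF10B 48755 bp. The sequences of ZMAT3, the best match, and of CDKN1A, a p53 target outside the list that served to check the search, are printed for comparison with those in open DNA.
ZMAT3: tgcctAGGCATGTCTGGACTTGTTTtatga
CDKN1A: gtcagGAACATGTCCCAACATGTTGagctc

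The CDKN1A element (chr6:36676449-36676468) was found with 2 mismatches and also lay outside the regions, 1886 bp from the nearest. CDKN1A had another element, with 1 mismatch, in a distal region with a mean signal of 86.7. MDM2, the other known p53 target used to check the search, had no element of this form in its regions, which says only that these letters are not there. The search can thus pass over a known target, and a member without an element is not shown to lack a p53 site.

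**Figure D2:**
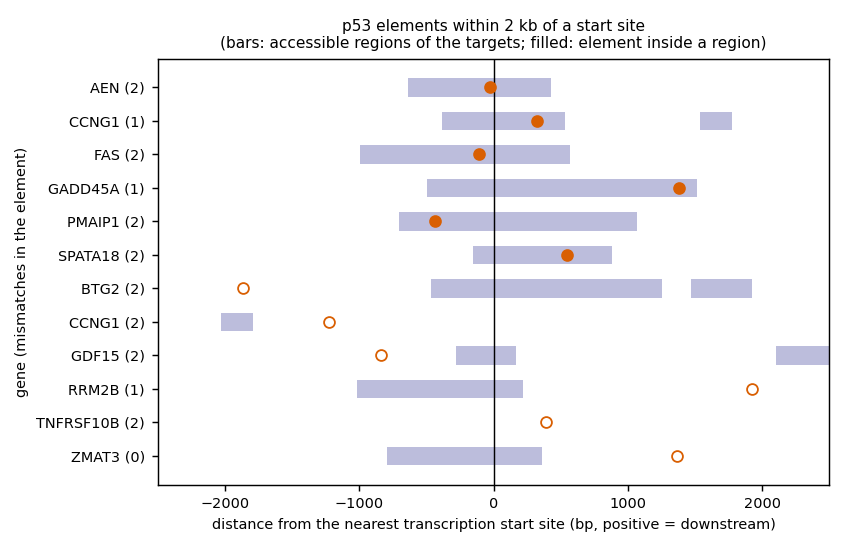
Position of the 12 p53 elements within 2 kb of a start site of the 40 targets, in bp from the nearest TSS. Bars are accessible regions of the targets, filled circles are elements inside a region and open circles elements outside, with the number of mismatches in brackets. The 6 filled circles lie between 437 bp upstream and 1379 bp downstream, and the element of ZMAT3, without a mismatch, lies beyond the end of its region.

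The promoters of the targets were mostly open. A promoter region was present for 36 of the 40 genes (90.0%, interval 76.95 to 96.04%), against 78.8% of other protein-coding genes, 92.3% of other Hallmark p53 pathway genes and 100% of the cell-cycle genes. Where a gene had several promoter regions the strongest stood for it. The median mean signal of the 36 strongest regions was 1287, against 839.8 over other protein-coding genes, 980.6 over other Hallmark p53 genes and 1358 over the cell-cycle genes. Of the 36, 28 lay above the median of all 15493 genes with a promoter region, 16 lay above the upper quartile and 3 (PHLDA3, BBC3 and FAS) below the lower. Per kb of width the median was 1045, against 684 over other genes, and 26 of the 36 lay above the median of all. On that scale SUSD6, KITLG and SESN2 lay below it and GDF15 above. The regions of the targets had a median width of 1269.5 bp (1156 over other genes) and a median GC content of 70.2% (67.3%). Mean signals compare regions only, not the genes' expression.

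Genes of cell-cycle arrest and p53 feedback had promoters from very strong to weak. The highest of the 10 was BTG2, an antiproliferative gene, with a mean signal of 3439.6 (percentile 98.3 of all genes), followed by GADD45A (3006) and by PLK3 and PLK2, kinases of the stress response (2190 and 2044). CCNG1 (1336), TP53INP1, which encodes a stress protein that acts in autophagy and apoptosis (1239), FBXW7, the substrate receptor of a ubiquitin ligase for cyclin E (1130.02), and RPS27L (1121) lay closer to the middle of the genes. ZMAT3 had 532. The lowest was PHLDA3, which encodes a repressor of AKT, with 361 (percentile 23.3).

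Of the 8 genes of mitochondrial and nuclear apoptosis, APAF1, which encodes the scaffold of the apoptosome, was highest at 2012. PMAIP1 followed at 1432, PERP, which encodes a membrane protein of desmosomes, at 1121, AEN at 979.9 and SUSD6 at 907. Next came TRIAP1, which encodes an inhibitor of apoptosis, at 739, and BAX, the pore-forming BCL2 family member, at 729. BBC3 had the lowest of all 36 values, 187 (percentile 13.8).

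Of the 4 genes of FAS and TRAIL receptors, FAS alone had a promoter region, at 293 (percentile 19.6). No promoter or distal region was listed for TNFRSF10A, TNFRSF10B and TNFRSF10C, which encode receptors of the ligand TRAIL and lie in the same cluster of genes on chromosome 8. The region nearest to a TSS of TNFRSF10A was 21166 bp away, at the promoter of CHMP7, that of TNFRSF10B 49145 bp and that of TNFRSF10C 60559 bp. The latter was the promoter region of TNFRSF10D, the gene of the same family between TNFRSF10C and TNFRSF10A, with a mean signal of 15.7. TRIM22, an interferon- and p53-inducible gene, was the only other member with no listed region, and the nearest to it was 100329 bp away.

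All 5 genes of DNA repair and nucleotide supply lay above the median of all genes. RRM2B had the highest value of the 36, 4921 (percentile 99.7). The translesion polymerase gene POLK had 2178, DDB2 1743, the damage-recognition gene XPC 1609 and the translesion polymerase gene POLH 956. The regions of POLK, XPC and POLH also covered a start site of a neighbour, CERT1, LSM3 and XPO5, so that their signal cannot be given to one gene alone. This was so for the strongest region of 8 of the 36 genes (22.2%, against 22.9% of other genes), the others being TP53INP1, APAF1, TRIAP1, FAS and SESN1.

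Of the 7 genes of redox balance and metabolism, 6 lay above the median of all genes, SESN2 not when taken per kb. TP53I3, which encodes a quinone oxidoreductase, had 2810 (percentile 96.1), and the sestrin gene SESN1 had 2640.15. FDXR, which encodes ferredoxin reductase, had 2079. TIGAR had 1443, the ceramidase gene ACER2 had 1366 and SESN2 had 879. SPATA18 was lowest with 566. Of the 6 remaining genes, NDRG1, a stress and differentiation gene, was highest with 1875, and IER5 had 1574. NINJ1, which acts in the rupture of the plasma membrane, had 1235, and KITLG, which encodes the ligand of the receptor KIT, had 1124. GDF15, which encodes a secreted stress cytokine, had 481 at its strongest region (percentile 29.98 of all genes). This region was narrow, at 444 bp, and per kb it had 1083 (percentile 73.45). Its other 2 promoter regions, with 39.1 and 19.3, had the lowest mean signals of all 48.

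**Figure D3:**
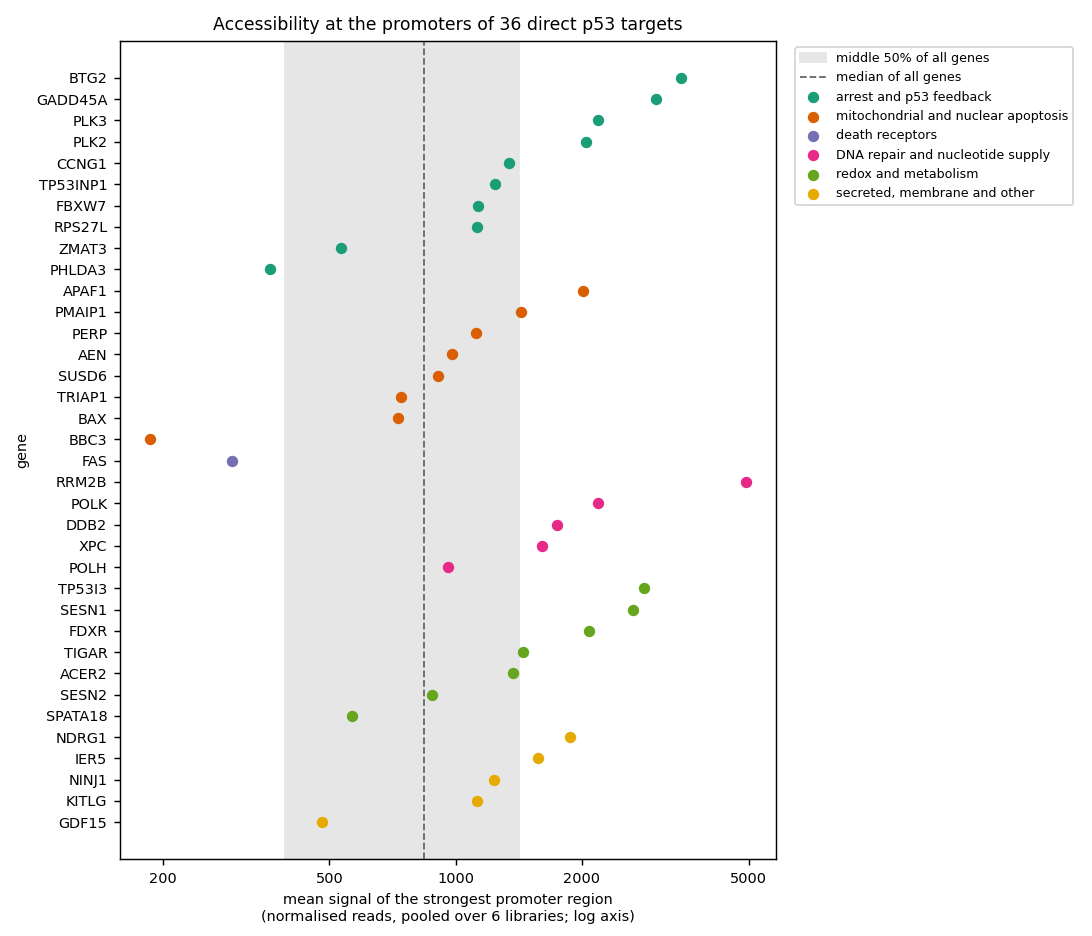
Mean signal of the strongest promoter region of the 36 targets with such a region, on a log axis, coloured by role. The grey band spans the middle 50% of all genes with a promoter region and the dashed line is their median. RRM2B (4921) and BTG2 (3439.6) lie highest, BBC3 (187) and FAS (293) lowest.

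Of the 36 genes, 26 had 1 promoter region, 8 had 2 and 2 had 3. At alternative start sites the levels were unequal. SESN1 had 2640.15 at one start site and 1209 at another, TIGAR 1443 and 391, and FBXW7 1130.02 and 472. Per kb of width the values were 1826 and 927 for SESN1, 1266 and 668 for TIGAR, and closer, at 804 and 608, for FBXW7. The stronger region of SESN1 also covered a start site of CEP57L1. The additional region of CCNG1 had 119.7, against 1336 for the main one.

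Other promoter motifs were searched in the middle 300 bp, on both strands. The SP1 box GGGCGG was present in 34 of the 48 regions (70.8%, interval 56.8 to 81.8%), against 62.5% of other promoter regions of like mean signal. The CCAAT box was present in 16 (33.3%, against 27.4%), the ETS site CCGGAAG in 4 (8.33%, against 11.8%), the NRF1 site in 2 (4.17%, against 6.03%) and the TATA box TATAAA in 2, those of CCNG1 and GDF15 (4.17%, against 3.68%). The E2F site, TTTGGCGC or TTTCCCGC, was present only in AEN (2.08%, against 2.82%), and is part of the promoter printed above. For each of these motifs the interval of the targets covers the share of the others. No region had the AP-1 site TGANTCA or the cAMP response element TGACGTCA, which allows shares of up to 6.25%, against 3.73% and 1.77%.

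Distal regions were spread over the targets in shares close to those of other genes. None was found for 32.5% of the 40 genes and 32.9% of other protein-coding genes, and the 10% of genes with most held 40.7% and 43.8% of the regions. GADD45A had 17, BTG2 14, and PMAIP1 and IER5 12 each, so that 4 genes held 55 of the 135. FBXW7, SUSD6 and NDRG1 had 8 each, and 13 genes had none, among them BAX, XPC, PLK3, TIGAR and TP53I3. With start sites of all genes the first 4 had 9, 3, 1 and 5, or 18 in all, and 16 targets had no distal region (40%, against 48.3% of other genes). In the 135 regions the mean signal ranged from 15.7 to 5349 with a median of 121, against 88.4 in the 55023 other distal regions within 100 kb of a TSS. A mean signal over 1000 was found in 11 (8.15%), 5 of them assigned to BTG2, against 3.77% of these others. Of the 135, 36 lay in the body of their own gene, 12 in that of another protein-coding gene only and 87 outside the bodies of protein-coding genes. Bodies of noncoding genes were not considered.

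The strongest distal regions were those assigned to BTG2. A region 14554 bp upstream of its TSS (chr1:203290253-203291678) had a mean signal of 5349, and another 22728 bp upstream (chr1:203282234-203283349) had 5047. These were the 54th and the 60th of all 88448 distal regions, and both exceeded the promoter of BTG2. The latter held a p53 element with a spacer of 3 bases and 2 mismatches. Another region, 22033 bp downstream, had 2117, and 5 of the 14 regions of BTG2 had a mean signal over 1000. With start sites of all genes BTG2 had 3 distal regions in place of 14, so these assignments depend on the annotation.

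Of the 27 genes with both kinds of region, 6 had a distal region stronger than any promoter region (22.2%, against 28.1% of other genes with both). Per kb of width there were 8 (29.6%, against 37.96%), PHLDA3 and SUSD6 being added. The distal region of AEN, 16504 bp upstream, had 2316, which was 2.36 times the value at its promoter but 1.23 times per kb. The strongest distal region of BBC3, in an intron 4666 bp downstream of the TSS, had 377 or 2.02 times its promoter. The ratio was 1.56 for BTG2, 1.29 for SESN2, 1.08 for PMAIP1 and 1.03 for IER5. With the highest value per kb of either kind, it was 2.41 for SESN2, 2.26 for BTG2, 1.98 for SUSD6 and 1.93 for BBC3. The distal region of IER5 with the highest mean signal lay 91472 bp downstream. Its assignment, like that of every distal region, rests on the nearest TSS alone. Per kb the strongest distal region of IER5 was another, 4391 bp upstream, with 1902 against 1435 at its promoter. For RRM2B the ratio of mean signals was lowest, 0.0262, with a strongest distal region of 129.

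**Figure D4:**
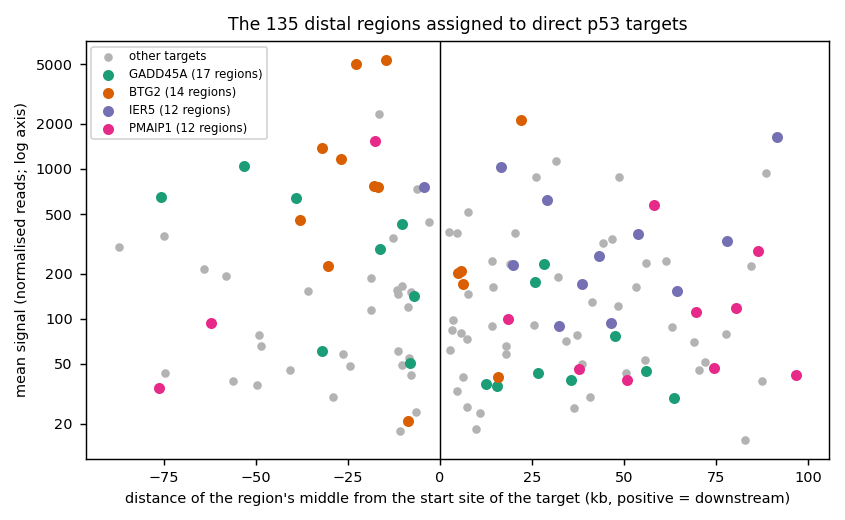
Mean signal (log axis) of the 135 distal regions against their distance from the start site, in kb, with the 4 genes that had most regions in colour. The 2 highest points, at 5349 and 5047, are upstream of BTG2, while the 17 regions of GADD45A reach 1044.

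Motifs at distal regions were close to those of other regions for AP-1 (13 of 135, 9.63%, interval 5.71 to 15.8%, against 11.5% at like mean signal) and for the TATA box (14.8%, against 16.0%). The SP1 box was present in 23 (17.04%, interval 11.6 to 24.3%), against 10.3% of other distal regions of like mean signal and 12.3% when GC content was matched as well. The cAMP response element was present in 3 regions, of GADD45A and IER5 (2.22%, interval 0.759 to 6.33%), against 0.341%. The CCAAT box was present in 31 (22.96%, against 30.55%) and the ETS site in 4 (2.96%, against 1.77%). The NRF1 site was present in 2 (1.481%, interval 0.4072 to 5.241%), against 0.4025%, or 0.5099% with GC content matched as well. No region had the E2F site, which allows a share of up to 2.22%, against 0.5295%. Neighbouring regions of 1 gene are not independent, and no test was made.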

How the data were processed

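The ATAC-seq libraries were 3 from senescent and 3 from non-senescent EndoC-βH3 cells, grouped by their labels. According to the methods of the study and the processing notes of the submitters, the authors used Trim Galore for trimming and Bowtie2 for alignment, with hg38 as the reference. Duplicates and reads of the mitochondrial genome were left out, and the transposase offset was corrected. Peaks were called by MACS2 and merged over libraries before reads in them were counted. Tool versions are not given in the sources used here. The mean signal in the deposited table is the authors' average over all libraries of counts divided by DESeq2 size factors. The other 5 columns of values hold the fold change, its error, a statistic and p-values of the authors' own comparison of the groups. They were not used, so that no comparison of the groups is made here.

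The 40 genes, their roles and the gene lists were chosen with earlier results of these data known. Hallmark and cell-cycle genes were those named by the study. Genes and start sites were from GENCODE 44, and 0 regions lay past a chromosome end of the hg38 reference. Region coordinates are as in the table, with starts read as counted from 0, while elements are counted from 1. Elements were searched with Python 3.11.15 and pysam 0.24.0, and the search was tested on simulated sequences. Other regions were weighted over 20 bins of mean signal, or over 10 bins of mean signal crossed with 5 of GC content. Shares above 0 carry Wilson intervals. Genes given in full were the highest and lowest of each role, those with no promoter region, those with an element, those with most distal regions and the strongest distal region. Further values were given after they had been seen, as were the search within 2 kb of all start sites, and the values per kb and with start sites of all genes for distal regions of single genes. Alternatives were promoter windows of 1 and 0.5 kb, a distal limit of 50 kb, start sites of all genes, a mean signal of at least 50, sums or values per kb, and other mismatches, spacers and windows, the whole region included.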

Additional observations from a re-analysis of the deposited data

How the results depend on the processing

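No paired analysis was possible because single libraries have no values in the table, and for the same reason leaving out single libraries, other normalisations and count filters were not run. Shares rest on 2 of 48 promoter regions and 1 of 135 distal regions, so their intervals are too wide to show whether they are stable. The promoter share was 4.17% in the 300 bp window with 2 mismatches, 10.4% with 3 mismatches and 12.5% in the whole region. With start sites of all genes, 59 distal regions had their nearest TSS at a target, in place of 135, and the 4 targets with most had 18, in place of 55, an alternative chosen after seeing the data. In the 300 bp window, 0% of promoter regions had an element with 0 or 1 mismatch, in place of 4.17%, and the share of other promoter regions of like mean signal was 0.0350% with GC content matched, in place of 0.0562%. The number of genes with an element was 1 with 0 mismatches, 3 with 1, and 12 both with 3 mismatches and with a spacer of up to 3 bases, in place of 7, since each rule is stricter or looser by construction.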
